A study of Bos taurus with 15 samples.

Results

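GC, the gene of the vitamin D binding protein, was examined through the CpG methylation of the sequence that surrounds it in the liver and mammary gland of Holstein cattle. The members were taken by position and not by their methylation, as every cytosine listed on chromosome 6 from base 88650000 to base 88800000 of the bovine assembly UMD3.1. GC lies at about 88695940 to 88739180 of that assembly, a stretch of 43.24 kb called the GC span below, and the whole region of 150 kb is called the GC window. The window was 1 of 17749 windows of this length that held reads, and 705 of its positions were read in at least 1 of the 15 animals. No annotation or sequence of UMD3.1 was used here, so the ends of the GC span are approximate, are named left (lower coordinate) and right, and cannot be assigned to exons, introns or the transcription start.

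Vitamin D binding protein belongs to the albumin family. Hepatocytes make the protein and release it into plasma, where it carries vitamin D and its hydroxylated forms and binds actin freed from damaged cells. In mammalian genomes most CpG cytosines are methylated, whereas promoters and enhancers in use tend to have low methylation, and a multi-allelic copy number variant next to GC is known to segregate in dairy cattle. The liver is therefore the tissue in which GC is known to be used, and mammary gland served as the other tissue.

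The dams were kept either with shade alone (heat stressed, HT) or with shade, fans and soakers (cooled, CL) in the last 6 to 7 weeks of gestation. Liver was taken from newborn bull calves that had been cooled (IUCL-B, n = 5) or heat stressed (IUHT-B, n = 4) in utero, and mammary gland was biopsied on day 21 of the first lactation from heifers that had been cooled (IUCL-H, n = 3) or heat stressed (IUHT-H, n = 3) in utero. The groups were compared to ask whether late-gestation heat stress of the dam was recorded in the DNA of the offspring. These are the numbers of libraries used here. The study describes 5 IUHT-B calves and 4 IUCL-H heifers, and it excluded an IUHT-B calf whose reads did not align to the genome. Calves carry the number in their labels, and heifers are numbered within their group. Each library came from a different animal and from whole tissue, so the cell types of a tissue cannot be told apart. Tissue, sex, age and library set coincided and cannot be told apart. The files hold DNA methylation only, so neither the expression of GC nor the identity of the tissues was measured here.

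Methylation was read by reduced representation bisulfite sequencing, in which bisulfite leaves methylated cytosines unchanged and each read that crosses a CpG gives 1 call, methylated or not. The methylation level is the percentage of methylated calls over all calls of a region in an animal. Heifer libraries held 13949097 to 20240625 calls at 7552567 to 9753540 positions, and calf libraries held 10484911 to 38221835 calls at 307023 to 5958861 positions. Both wide calf libraries, of 3289592 and 5958861 positions, belonged to IUCL-B calves 4 and 5.

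The GC window was read thinly, and in a different manner in each tissue. In liver, 3189 calls fell on 237 positions, of which 47 were read in 2 or more calves and 0 in all 9 calves. In mammary gland, 2075 calls fell on 602 positions, of which 306 were read in 2 or more heifers and 19 in all 6 heifers. Mammary gland thus had 4.01 positions per kb against 1.58 in liver, and 134 positions were read in both tissues. The number of calls in the window ranged from 269 to 447 in heifers and from 1 to 728 in calves. IUHT-B calf 3 contributed 5 calls and IUHT-B calf 5 contributed 1 call, so these 2 of the 4 IUHT-B calves are all but unread at GC. The main comparisons of the window's level that rest on them are given with and without them. Alternatives with other weights keep both calves unless stated. Among the 12993 windows with more than 10 calls in every calf, a bar the GC window did not reach, 9.22% had fewer liver calls than it. Without IUHT-B calves 3 and 5 the share was 26.4% of 17327 windows, and 39.3% of the 17743 windows with more than 10 calls in every heifer had fewer mammary calls.

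**Figure D1:**
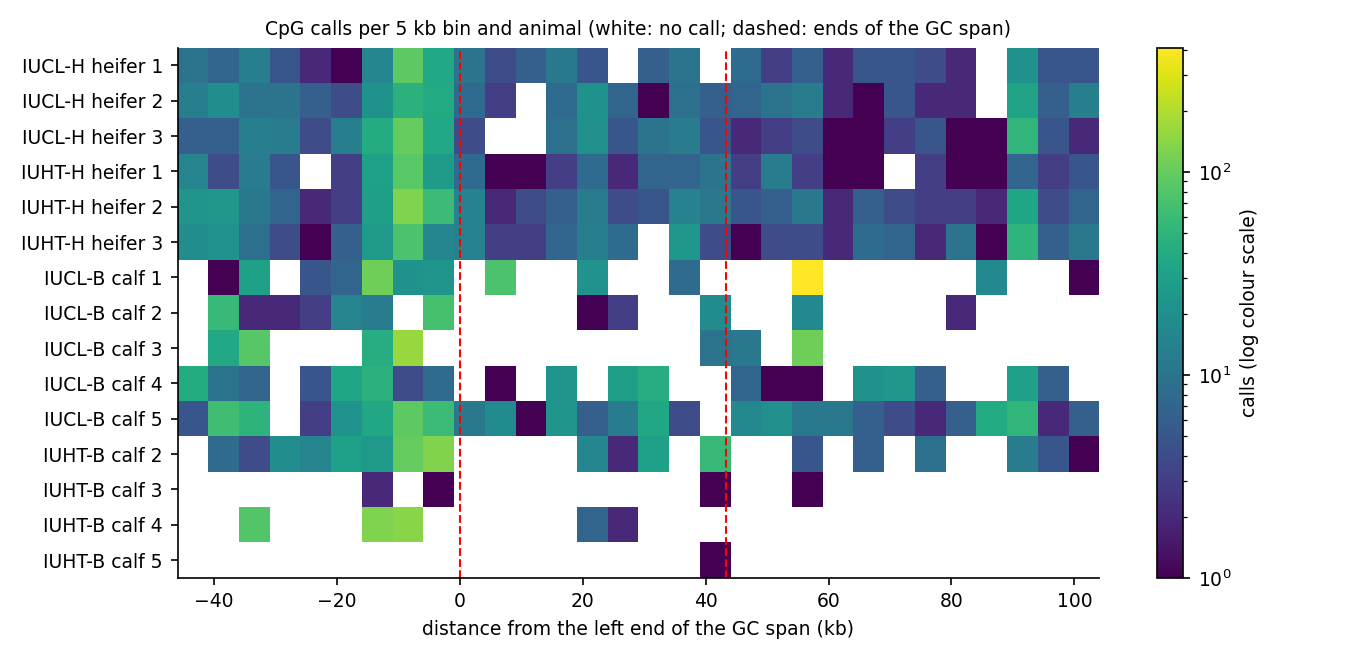
Each row is an animal and each column a 5 kb bin of the GC window, placed by its distance in kb from the left end of the GC span, and the colour gives the number of calls on a log scale (white, no call; dashed lines, ends of the span). Heifers had calls in nearly every bin, as did IUCL-B calf 5, the other calves had calls in patches, and 3 bins left of the span had more than 10 calls in every heifer.

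The methylation level of the GC window in the cooled calves was 87.9%, 65.7%, 96.0%, 89.0% and 83.8% in IUCL-B calves 1 to 5. In the heat stressed calves it was 71.5%, 60%, 63.6% and 100% in IUHT-B calves 2, 3, 4 and 5. The outer values of IUHT-B are those of the calves with 5 calls and 1 call, whose Wilson 95% intervals ran from 23.1% to 88.2% and from 20.7% to 100%. The other IUHT-B calves, 2 and 4, lay below 4 of the 5 IUCL-B calves and on either side of IUCL-B calf 2, so the groups overlapped. In mammary gland the level was 65.4%, 74.8% and 66.0% in IUCL-H heifers 1 to 3 and 65.8%, 68.7% and 77.5% in IUHT-H heifers 1 to 3. The ranges of these groups overlapped, with IUHT-H heifer 3 above every IUCL-H heifer.

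The level in liver did not differ between maternal treatments beyond the spread between calves. IUHT-B averaged 73.8% ± 18.1 (SD, n = 4) and IUCL-B 84.5% ± 11.4 (SD, n = 5), a difference of -10.7 percentage points (two-sided exact permutation test, p = 0.302, Benjamini-Hochberg adjusted p = 0.905 over the 9 tests of levels reported here). Without IUHT-B calves 3 and 5 the difference was -16.9 points (exact p = 0.190), with the smallest possible p at 0.0476. Without IUHT-B calf 5 alone it was -19.5 points (exact p = 0.0714, smallest possible p 0.0179) and without IUHT-B calf 3 alone -6.13 points (exact p = 0.536). In mammary gland IUHT-H averaged 70.7% ± 6.10 (SD, n = 3) and IUCL-H 68.7% ± 5.24 (SD, n = 3), a difference of 1.94 points (exact permutation test, p = 0.6, adjusted p = 0.976). Without IUHT-H heifer 3 it was -1.48 points, and with only positions of more than 10 reads, which left 2 IUHT-H and 3 IUCL-H heifers, it was 24.7 points (exact p = 0.2). With 3 heifers against 3 that test cannot give a p under 0.1. The treatment difference of liver minus that of mammary gland was -12.7 points (exact permutation of treatment within tissue, p = 0.253, adjusted p = 0.905), and -21.4 points without IUHT-B calf 5 (exact p = 0.0482). Without IUHT-B calves 3 and 5 it was -18.9 points (exact p = 0.107). With every position counted once it was -4.07 points (exact p = 0.666), and with no position counting for more than 10 calls -5.76 points (exact p = 0.540). Read minimums enlarged it, to -21.1 points with at least 5 reads (exact p = 0.202) and -43.5 points with more than 10 (exact p = 0.0429). Neither minimum left a position of IUHT-B calves 3 and 5, and the latter left 7 calves and 5 heifers.

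**Figure D2:**
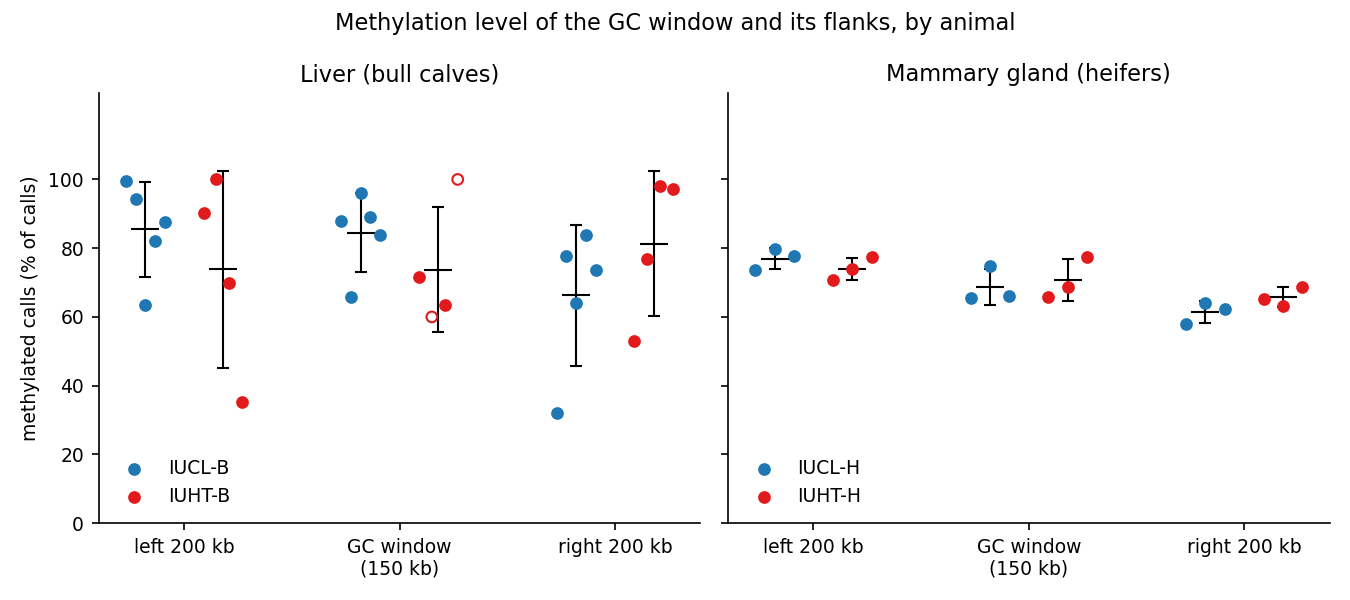
Methylated calls (% of calls) of the GC window and of the 200 kb on each side, with a point per animal, horizontal lines at the group mean and bars of 1 SD; open points have at most 10 calls. In mammary gland the right side lay below the left side in all 6 heifers, and in liver the animals spread over a wider range in every region.

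Averaging positions in place of calls narrowed the liver difference. With every position counted once, IUCL-B averaged 82.4% ± 6.49 (SD, n = 5) and IUHT-B 80.8% ± 17.7 (SD, n = 4), or 81.6% without IUHT-B calves 3 and 5, from 73.2% in calf 2 and 90% in calf 4. With all calves the difference was -1.64 points (exact p = 0.833), and with no position counting for more than 10 calls it was -4.79 points (exact p = 0.595). A few deep positions carried much of the level of some calves, since the deepest position took 22.7% of the window's calls in IUCL-B calf 1 and for IUHT-B calf 4 it was 36.4%, against 1.94% to 6.31% in heifers. In IUCL-B calf 4 it held 38 of 347 calls, and in IUCL-B calf 5 it took 4.68%, inside the range of the heifers. IUCL-B calf 1 had 165 of 165 methylated reads at position 88752027, 56.1 kb right of the left end of the span, and 100 of 100 at 88751386. IUHT-B calf 4 had 0 of 131 methylated reads at 88689682, left of the span, a position that no other calf covered and where the heifers together had 3 of 12 reads methylated. The level of IUHT-B calf 4 therefore rests on that position for all of its unmethylated calls. Cooled calves had such positions too. IUCL-B calf 2 had 68 of its 69 unmethylated calls at 88692579, and IUCL-B calf 1 had 74 of its 88 at a single position of the span.

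The level of the GC window did not differ from that of the 200 kb on each side beyond the spread between animals in either tissue. The window differed from its flanks by a mean of -0.664 points in liver (SD 18.6, n = 9, higher in 5 of 9 calves, exact sign-flip permutation test, p = 0.930, adjusted p = 0.976), and by -0.474 points without IUHT-B calves 3 and 5 (exact p = 0.984). In mammary gland the mean difference was -0.413 points (SD 2.70, n = 6, higher in 2 of 6 heifers, exact p = 0.75, adjusted p = 0.976), and against flanks of 500 kb it was -8.22 points (exact p = 0.0625). The sign of the liver mean turned without IUCL-B calf 2 (1.72), IUHT-B calf 3 (1.45) or IUHT-B calf 4 (2.60), and that of the mammary mean without IUCL-H heifer 3 (0.105) or IUHT-H heifer 1 (0.038). The liver differences ran from -26.8 points in IUHT-B calf 4 to 32.3 points in IUCL-B calf 3, and the mammary differences from -3.00 to 4.05 points. A single flank gave another picture in mammary gland, where mean levels were lower at each step from left to right across the locus. The left flank averaged 75.5% ± 3.24 (SD, n = 6), the window 69.7% ± 5.19 and the right flank 63.6% ± 3.58. The left flank exceeded the right flank in 6 of 6 heifers, by 5.57 to 15.7 points with a mean of 11.9 (exact sign-flip permutation test, p = 0.03125, the smallest this design allows, for a comparison chosen after the levels were seen). The window lay above the right flank in 6 of 6 heifers, by 6.09 points on average, and above the left flank in 1 of 6, with a mean difference of -5.81 points. In liver the left flank minus the right flank averaged 7.36 points with an SD of 37.2 (5 of 9 calves, exact p = 0.5625).

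The mean level of the window was 79.7% ± 14.8 (SD, n = 9) in liver and 69.7% ± 5.19 (SD, n = 6) in mammary gland, a difference of 10.05 points that was within the spread between animals (exact permutation test, p = 0.135, adjusted p = 0.905). Without IUHT-B calves 3 and 5 the difference was 9.97 points (exact p = 0.0956). When no position counted for more than 10 calls of an animal, it was 13.7 points (exact p = 0.0128). This value keeps IUHT-B calves 3 and 5, and no version without them was run. At the positions read in both tissues the difference was 4.26 points (exact p = 0.583). The flanks averaged 80.4% ± 7.70 (SD, n = 9) in liver and 70.1% ± 2.69 (SD, n = 6) in mammary gland. The window minus flanks of liver less that of mammary gland was -0.251 points (exact permutation test, p = 0.976, adjusted p = 0.976), and -0.061 points without IUHT-B calves 3 and 5 (exact p = 0.998). Its sign turned without any one of IUCL-B calf 2, IUHT-B calves 2, 3 and 4, IUCL-H heifer 2 and IUHT-H heifer 3, with values from 0.098 to 3.02 points. Among windows with more than 10 calls in every animal of the tissue, 49.4% of 12993 had a lower liver mean than the GC window and 37.4% of 17743 had a lower mammary mean, with medians of 79.9% and 72.7%. Without IUHT-B calves 3 and 5, 50.8% of 17327 windows had a lower liver mean.

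The GC window was also read from fits over the whole genome. Windows with more than 10 calls in every animal of a comparison were fitted with limma on the log2 ratio of methylated to unmethylated calls, and called at a Benjamini-Hochberg adjusted p of 0.05 or less. In mammary gland the GC window had a log2 difference of 0.14 (SE 0.27, limma adjusted p = 0.99963), in a fit that called 0 of 17743 windows (0.0%, with 440 at an unadjusted p under 0.05, and 0 calls with 322 such windows by edgeR). In liver the window could not enter the fit of all 9 calves, which called 0 of 12993 windows (0.0%, with 1432 at an unadjusted p under 0.05, and 0 calls with 1030 such windows by edgeR). Without IUHT-B calves 3 and 5 its log2 difference was -1.68 (SE 0.97, unadjusted p = 0.120, limma adjusted p = 0.639), in a fit that called 0 of 17327 windows (0.0%, with 1526 at an unadjusted p under 0.05). The median of all windows in that fit was 0.25, so the value of the GC window had the opposite sign to that shift. The fit of all 15 animals between tissues, which the GC window could not enter, called 19 of 12990 windows (0.146%). That count ran from 3 to 44 with an animal left out and was 832 on the percent scale. Between liver and mammary gland, without IUHT-B calves 3 and 5, the GC window differed by 1.05 on the log2 scale (SE 0.55, limma adjusted p = 0.240), beside a median shift of 0.74 over all windows and 305 calls among 17323 windows (1.76%).

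The 30 bins of 5 kb in the window were covered unevenly. More than 10 calls in every heifer were found in 3 bins, which start at 88680000, 88685000 and 88690000 and adjoin the left end of the GC span, and in every calf in 0 bins. These 15 kb held 43.5% of the mammary calls and 38.0% of the liver calls of the window. The liver share differed between groups, with 29.2% of the IUCL-B calls and 62.9% of the IUHT-B calls, and its part in the liver difference of the window was not tested. The cause of this crowding was not tested either, and whether these bins overlap the copy number variant next to GC could not be checked without an annotation. In heifers their levels stepped down towards the gene, from 84.9% ± 4.37 to 63.5% ± 7.35 and 60.0% ± 14.0 (SD, n = 6). The first bin lay above the second in all 6 heifers, whereas the other two overlapped. No heifer group stood apart in these 3 bins, where IUCL-H averaged 82.3%, 62.5% and 63.6% and IUHT-H 87.5%, 64.5% and 56.4%. Their limma log2 differences were 0.59 (SE 0.45, adjusted p = 0.995), 0.11 (SE 0.47, adjusted p = 0.998) and -0.47 (SE 0.62, adjusted p = 0.997), in a fit that called 0 of 187782 bins (0.0%, with 8659 at an unadjusted p under 0.05). With a heifer left out, the difference ran from 0.29 to 0.80 in the first bin (lowest without IUHT-H heifer 3) and from -1.08 to -0.10 in the last (the ends without IUCL-H heifer 3 and IUCL-H heifer 1).

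With at least 5 calls in every heifer, 8 bins of the window were fitted, and the bin at 88660000 was the one in which the heifer groups did not overlap. This bin was singled out after the values were seen. Its levels were 46.2%, 50% and 84.6% in IUCL-H heifers 1 to 3 and 100%, 90.9% and 88.9% in IUHT-H heifers 1 to 3, from 9 to 13 calls each. All IUHT-H heifers thus lay above all IUCL-H heifers, as they did in 4.82% of the 289275 bins with this depth. In a further 4.47% of these bins all IUHT-H heifers lay below all IUCL-H heifers. The log2 difference was 2.65 (SE 0.83, unadjusted p = 0.0115, limma adjusted p = 0.991), in a fit that called 0 of these bins (0.0%, with 14127 at an unadjusted p under 0.05).

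**Figure D3:**
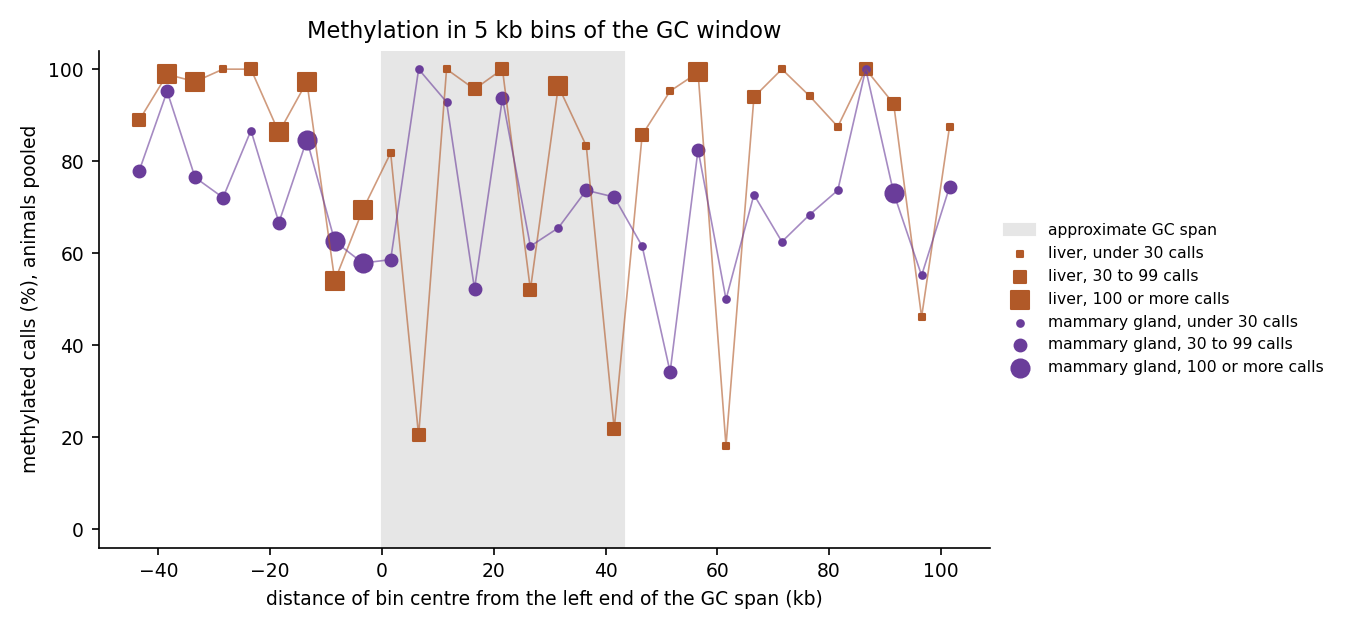
Methylated calls (%) with the animals of a tissue pooled, in 5 kb bins placed by the distance in kb of the bin centre from the left end of the GC span (shaded); squares are liver, circles mammary gland, and larger symbols hold more calls. Liver bins ran from 18.2% to 100% and mammary bins from 34.2% to 100%, and the 3 mammary bins left of the span stepped down from 84.7% to 57.9%.

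In liver the bins at 88685000 and 88690000 ran from near none to complete methylation, depending on the calf, whereas no calf was near none in the bin at 88680000. None of the 30 bins could enter the fits of all 9 calves, which called 1 of 7433 bins between treatments (0.0135%) and, with the heifers, 680 of 7371 bins between tissues (9.23%). In the bin at 88680000, 7 of the 8 calves with calls were at 97.6% to 100% and IUCL-B calf 5 was at 72.2%. It was the one bin to enter the fits without IUHT-B calves 3 and 5, with a log2 difference between treatments of 1.85 (SE 2.20, limma adjusted p = 0.816), where 0 of 33537 bins were called (0.0%, with 3114 at an unadjusted p under 0.05). That difference compares different cytosines, since 18 positions of the bin were read in IUCL-B, 3 in IUHT-B and 0 in both. Liver exceeded mammary gland in this bin by 3.16 on the log2 scale (SE 1.02, limma adjusted p = 0.0565), beside a median of 1.59 over all bins, of which 3238 of 32658 were called (9.91%). Its positions with at least 5 calls in each tissue, 88681005, 88684695 and 88684711, were fully methylated in both tissues. In the bin at 88690000, IUCL-B calves 1, 2, 4 and 5 were at 78.3%, 1.45%, 75% and 76.7%, from 23, 69, 8 and 60 calls. IUHT-B calves 2 and 3 were at 100%, from 130 calls and 1 call, both above every IUCL-B calf, a mean difference of 42.2 points that was singled out after the values were seen and not tested. Of 100463 bins with calls in the same 6 calves, 11.6% had both IUHT-B calves above all IUCL-B calves. Counting either direction, the groups did not overlap in 19.3% of them, and 13% had a difference at least as large. Without IUHT-B calf 3 the difference was again 42.2 points and rested on IUHT-B calf 2 alone. Among IUCL-B only calf 2 lay below 75%, with 0 of 68 reads methylated at 88692579, and it lowered the mean of its group. The groups shared no position in this bin, with 19 positions read in IUCL-B, 3 in IUHT-B and 0 in both, so the difference compares different cytosines. In the bin at 88685000, the levels were 90.5%, 96.3%, 100% and 68.8% in IUCL-B calves 1, 3, 4 and 5, from 21, 162, 4 and 93 calls. IUHT-B calves 2 and 4 were at 28.3% and 7.09%, from 99 and 141 calls, and the other 3 calves had no call. Both IUHT-B calves were thus below every IUCL-B calf in this bin, a mean difference of -71.2 points that was singled out after the values were seen and not tested. Of 108078 bins with calls in the same 6 calves, 6.37% had both IUHT-B calves below all IUCL-B calves and 1.59% had a difference at least as large in either direction. The groups did not overlap, in either direction, in 15.9% of these bins.

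The calls behind that difference came largely from different positions. Of the positions in the bin, 18 were read in IUCL-B and 12 in IUHT-B, with 5 in common. At the 5 common positions IUCL-B had 106 of 127 calls methylated and IUHT-B 31 of 98, and at the positions of 1 group alone IUCL-B had 137 of 153 and IUHT-B 7 of 142. These counts take the opposite strands of a CpG, which are adjoining bases, as separate positions. IUCL-B calf 4 had 3 of 3 methylated at 88688603, and IUHT-B calf 2 had 4 of 4 on the other strand at 88688604. Likewise, IUCL-B calf 5 had 13 of 13 at 88689087 and IUHT-B calf 2 had 1 of 1 at 88689088. Position 88689682, with its 131 unmethylated reads in IUHT-B calf 4, made up most of the unmethylated calls of IUHT-B at positions of its own. At the common position 88687608 IUHT-B calf 2 had 0 of 56 reads methylated and IUCL-B calf 5 had 2 of 7. Most of the methylated common calls of IUCL-B came from 88686285, where IUCL-B calf 3 had 77 of 77 and IUCL-B calf 1 had 1 of 1, against 0 of 2 in IUHT-B calf 2. At 88687656, which lies 48 bp right of 88687608, the order was the reverse, with 5 of 5 reads methylated in IUHT-B calf 4 against 7 of 10 in IUCL-B calf 5 and 0 of 3 in IUCL-B calf 3.

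Position 88687586 lies in the same bin and is the deepest mammary position of the window. It was methylated in 9 of 19, 8 of 12 and 4 of 18 reads of IUCL-H heifers 1 to 3 and in 6 of 11, 11 of 18 and 6 of 7 reads of IUHT-H heifers 1 to 3. Every heifer had reads of both states, and the groups overlapped. In liver, IUHT-B calf 2 had 21 of 30 reads methylated at this position and IUCL-B calf 5 had 2 of 6, whereas IUCL-B calf 1 had 9 of 9 and IUCL-B calf 4 had 1 of 1. At 88689571, the next deepest, IUCL-H heifers 1 to 3 had 9 of 10, 5 of 5 and 5 of 13 reads methylated. IUHT-H heifers 1 to 3 had 9 of 11, 10 of 13 and 4 of 6 there. At 88690601, closer to the gene, the 5 heifers with reads were at 50% or less. IUCL-H heifers 1 to 3 had 1 of 3, 3 of 6 and 2 of 16 reads methylated, and IUHT-H heifers 1 and 2 had 1 of 6 and 0 of 7.

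No position of the window entered the test for differentially methylated cytosines (DMCs) used here. It required more than 10 reads in every animal, a difference of at least 15 points and an adjusted p of 0.2 or less. That test called 298 of 900 sites in liver (33.1%) and 285 of 18486 in mammary gland (1.54%) elsewhere in the genome. It treats the reads of an animal as independent, and with an overdispersion term it called 57 and 0 sites, while limma called 3 and 1. With at least 5 reads in every heifer, 2 positions of the window entered and neither was a DMC. Position 88687586 was 21.0 points higher in IUHT-H (logistic regression over 40105 sites, unadjusted p = 0.0540, adjusted p = 0.482), and 88689571 was 8.81 points higher (adjusted p = 0.845).

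The reads of a position were far more alike in liver than in mammary gland. Among positions with at least 5 reads in an animal, all reads had the same state in 124 of 131 cases (94.7%) in liver and in 19 of 58 cases (32.8%) in mammary gland. In the flanks the share was 91.6% in liver and 32.1% in mammary gland, with 97.7% and 63.6% on the left side and 85.3% and 11.8% on the right side. Reads were not tagged by molecule, so the intervals given here cover counting error only, and the part of amplification in this contrast was not tested.

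**Figure D4:**
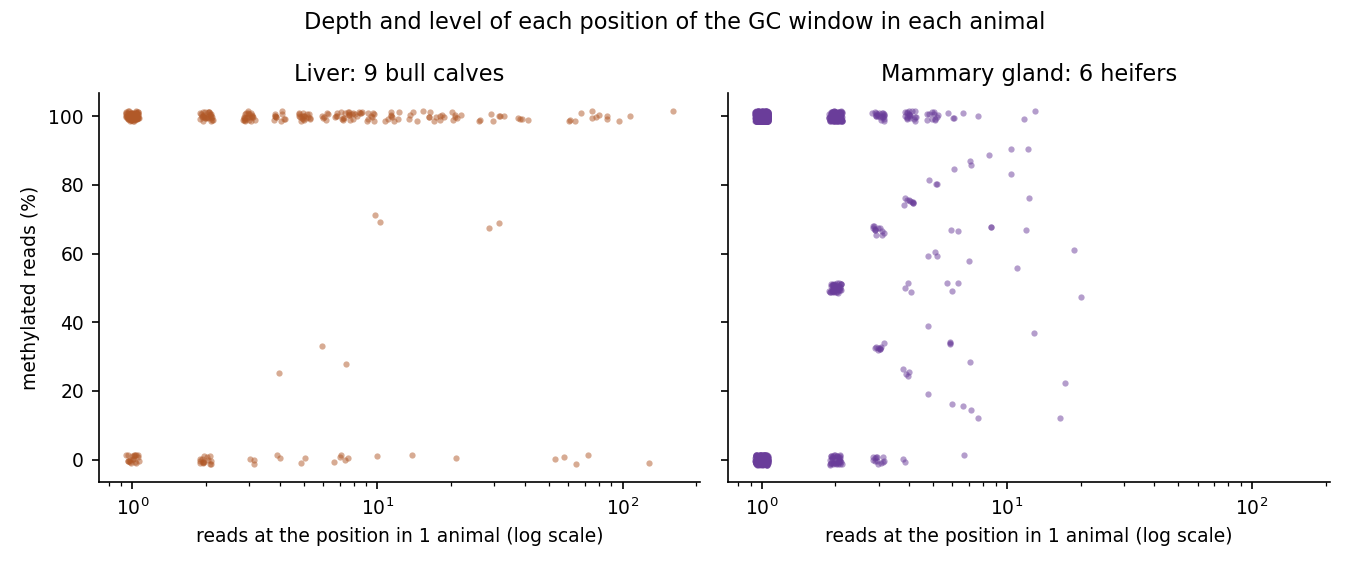
Each point is a position of the GC window in an animal, with its reads on a log axis and its methylated reads in % (points are shifted slightly to separate them). Liver positions lay at 0% or 100% up to 165 reads, apart from 7 with mixed reads among those with at least 5, whereas most mammary positions with at least 5 reads lay between.

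At the 26 positions with at least 5 calls in each tissue, levels were equal at 7, within 10 points of each other at 11, those 7 included, and more than 50 points apart at 4. The positions described next were chosen after their values were seen. Positions 88684695 and 88684711 were fully methylated in both tissues, at 65 of 65 liver calls each and at 13 of 13 and 11 of 11 mammary calls. At 88692579, 3361 bp left of the span, both tissues were low, with 0 of 69 liver calls and 1 of 7 mammary calls methylated. At 88690918, a single calf had 14 of 14 reads methylated where 3 heifers together had 1 of 12, and at 88690910 the counts were 0 of 14 and 2 of 11. At 88788814, right of the gene, a single calf had 0 of 7 against 16 of 21 in the 6 heifers. The 5 largest contrasts each rested on 1 calf.

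Within the GC span, liver had 383 calls at 47 positions, 12.0% of its calls in the window, and mammary gland 366 calls at 146 positions. In IUCL-B calves 1, 2, 4 and 5 the span was at 28.8%, 100%, 77.9% and 88.5%, and IUHT-B calves 2, 4 and 5 were at 100% with 48, 9 and 1 calls, while IUCL-B calf 3 and IUHT-B calf 3 had none. The low value of IUCL-B calf 1 came from a single position with 74 unmethylated reads. Heifers ranged from 57.7% to 82.5%. The span minus the rest of the window averaged 4.81 points in liver (SD 41.9, n = 6, higher in 4 of 6 calves, exact sign-flip permutation test, p = 0.781, adjusted p = 0.976). It was -19.9 points with 2 kb added to each end of the span (n = 8, exact p = 0.242) and 19.5 points without IUCL-B calf 1. Leaving out IUHT-B calves 3 and 5, which lack calls in the span or in the rest, did not change it, and its sign turned without IUCL-B calf 2 (-1.94), IUHT-B calf 2 (-0.570) or IUHT-B calf 4 (-1.70). It averaged 2.80 points in mammary gland (SD 9.62, n = 6, higher in 4 of 6 heifers, exact p = 0.594, adjusted p = 0.976), and -0.630 without IUCL-H heifer 3. Gene body and neighbouring sequence were not separated in either tissue at this depth.

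The calls around the ends of the span were few, and the liver calls nearest the right end were unmethylated. Within 500 bp of the right end, 0 of 68 liver calls were methylated, in 3 calves of both groups. IUHT-B calf 2 had 0 of 57 and IUHT-B calf 3 had 0 of 1 at position 88739217, 37 bp beyond the end, and IUCL-B calf 3 had 0 of 10 at 88739444, 264 bp beyond it. In the same 500 bp, 6 of 8 mammary calls were methylated, in 5 heifers. At 88739217 itself IUHT-H heifer 2 had 1 of 1 read methylated, and at 88739444 it had 0 of 1. This end was singled out after the values were seen and rests on 2 liver positions. Deep positions of a single state were also read elsewhere in the window. IUHT-B calf 4 had 0 of 131 methylated at 88689682, IUCL-B calf 2 had 0 of 68 at 88692579 and IUCL-B calf 1 had 165 of 165 at 88752027. Whether unmethylated positions were more frequent at the right end than elsewhere was not tested. Because the ends of the span are approximate, these distances are too, and a small shift of the end would change which positions count as within 500 bp.

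**Figure D5:**
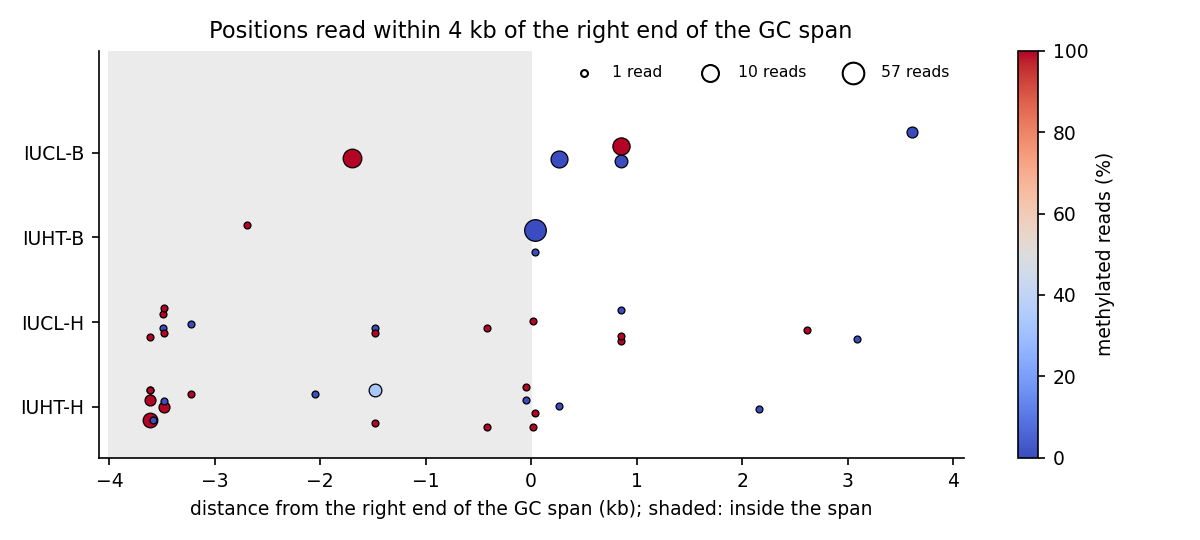
Positions read within 4 kb of the right end of the GC span, by distance in kb (shaded, inside the span) and by group, with each point an animal's position, its size the number of reads and its colour the methylated reads in %. The liver positions just beyond the end were unmethylated in 3 calves. Those at 0.85 kb, the opposite strands of 1 CpG, were methylated in 1 calf and unmethylated in another.

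Methylated positions were read within 2 kb on either side of that end. At 88740029, 849 bp beyond the end, IUCL-B calf 4 had 0 of 3 reads methylated. At the adjoining base 88740030, the opposite strand of the same CpG, IUCL-B calf 3 had 11 of 11. Inside the span, 1699 bp from the end, IUCL-B calf 2 had 18 of 18 methylated at 88737481. The whole bin at 88735000, which holds the right end, was at 21.8% in liver from 87 calls and at 72.2% in mammary gland from 36 calls. Around the left end, within 500 bp, 5 of 5 liver calls were methylated, all in IUCL-B calf 5, and 13 of 15 mammary calls. The bin at 88695000, which holds the left end, had liver calls in IUCL-B calf 5 alone, at 81.8%, and mammary levels from 10% in IUCL-H heifer 1 to 100% in IUCL-H heifer 3.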

How the data were processed

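Per the labels, DNA was cut with MspI and TaqαI, fragments under 300 bp were converted with bisulfite, and single ends of 50 bp were read. The submitters' processing notes name Trim Galore 0.4.4, Bismark 0.17.0, FastQC and UMD3.1, and the study's methods give other versions of these tools. The authors deposited, for every position, the count of methylated and of unmethylated reads and the percent methylated, which equalled the percent recomputed from the counts to within 1e-06 in every line. Positions on the opposite strands of a CpG were listed separately. Calls were pooled per animal over the GC window, its flanks of 200 kb, the GC span and 5 kb bins. Two-sided exact permutation tests over animals served for levels, adjusted together over 9 tests. Windows and bins were fitted across chromosomes 1 to 29 and X with limma 3.58.1 on log2((methylated + 0.5)/(unmethylated + 0.5)), and edgeR 4.0.16 was the alternative (R 4.3.3). DMCs were called by logistic regression with the study's cut-off for the difference, and with an adjusted p held to its q-value cut-off. The study kept cytosines with more than 10 reads and does not state that every animal had to reach this. Here every animal had to. The study reported more liver DMCs than the 900 sites this left, and more mammary DMCs than were called here, so this is not the study's own test. The fits were tested on simulated data. Wilson intervals of 95% were used. Bins were described singly where every animal of a tissue had more than 10 calls or where they hold an end of the span, and positions where they were the 3 deepest of a tissue. The bin at 88660000 and other positions were picked after their values were seen. The region and these rules were chosen with earlier results of these data known. A list of vitamin D and albumin family genes was not used here, because no annotation of UMD3.1 was used and the approximate span of GC was the only gene position at hand. Alternatives were other weights and read minimums, other flanks, single animals left out, edgeR, an overdispersion term and a replicate block.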

Additional observations from a re-analysis of the deposited data

Results flagged for a closer look

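The flanks of IUCL-B calf 3 stood at 63.7%, apart from the other 4 calves of IUCL-B at 80.7% to 85.4%. The gap to the nearest calf was 0.785 of the range of the group, above Dixon's critical value. The flanks of this calf held 444 calls at 43 positions, and its GC window was at 96.0%, the highest of IUCL-B. Such a gap is found by chance in about 1 in 20 groups, and 9 groups of values were tested.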

How the results depend on the processing

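Depth was a limit, since no liver bin had more than 10 calls in all 9 calves.

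The liver window difference between treatments kept its direction in all alternatives, from -19.5 (without IUHT-B calf 5) to -6.13 points with an animal left out, and was -1.64 with every position counted once. In mammary gland it ran from -1.48 (without IUHT-H heifer 3) to 4.96. The window minus flanks changed sign in liver with every position counted once (3.89), with calls capped at 10 per position (6.39) and against the right flank (6.78), and in mammary gland with every position counted once (0.307), at least 5 reads (0.646), more than 10 reads (5.80), flanks of 100 kb (2.46) and the right flank (6.09, exact p = 0.03125, 6 heifers). With an animal left out it ran from -4.78 to 2.60 and from -1.30 to 0.105. Liver minus mammary gland passed 0.05 with the cap (13.7, with IUHT-B calves 3 and 5 kept) and ran from 7.51 to 12.5 with an animal left out. Its version relative to the flanks changed sign with every position counted once (3.58), the cap (6.54), flanks of 500 kb (6.10), the left (5.23) or right flank (0.686) and shared positions (5.78), and ran from -4.37 to 3.02 with an animal left out. The treatment difference between tissues passed 0.05 with more than 10 reads per position (-43.5, exact permutation p = 0.0429) and ran from -21.4 (without IUHT-B calf 5) to -8.06. The liver span minus the rest changed sign with more than 10 reads (-1.74) and with 2 kb added to the span (-19.9), and ran from -1.94 to 19.5 (without IUCL-B calf 1), and in mammary gland from -0.630 (without IUCL-H heifer 3) to 5.24. The mammary span with read minimums of 5 or more than 10 was not run.

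Calls among 150 kb windows in liver were 1 with the cap and ran from 0 to 301 (without IUHT-B calf 2). Those between tissues, of 12990 windows, were 30 with an offset of 2, 832 on the percent scale and 34 with the cap. They were 10 of 11144 with more than 30 calls, 86 of 12990 without IUCL-B calves 4 and 5 and 305 of 17323 without IUHT-B calves 3 and 5. With an animal left out they ran from 3 (4 of the 6 heifers in turn) to 44 of 16338 (without IUHT-B calf 5). Among 5 kb bins in liver, calls were 2 on the percent scale, 6 with the cap, and 0 with at least 5 calls, without calves 4 and 5 of IUCL-B, without calves 3 and 5 of IUHT-B or without any single calf. Between tissues they were 347 of 7371 bins with an offset of 2 (4.71%) and 362 of 3107 with more than 30 calls (11.7%). They were 1464 of 7413 without IUCL-B calves 4 and 5 (19.7%) and 3238 of 32658 without IUHT-B calves 3 and 5 (9.91%). With an animal left out the count ran from 183 of 7375 (without IUCL-H heifer 3, 2.48%) to 1735 of 18347 (without IUHT-B calf 5, 9.46%). DMCs in liver were 636 of 1728 sites with at least 5 reads (36.8%) and 139 of 501 with more than 20 (27.7%). Of 900 sites, 57 were called with an overdispersion term and 3 by limma. With a calf left out the count ran from 301 of 910 to 489 of 1409 (without IUHT-B calf 5). In mammary gland DMCs were 475 of 40105 sites with at least 5 reads (1.18%) and 122 of 10272 with more than 20 (1.19%). Of 18486 sites, 0 were called with an overdispersion term and 1 by limma. With a heifer left out the count ran from 284 of 19768 to 453 of 18902 (without IUCL-H heifer 1). The log2 difference of the GC window in mammary gland ran from -0.11 to 0.35 with an animal left out. That of the bin at 88685000 was -0.020 with the cap and ran from -0.24 to 0.41, with -0.0039 without IUHT-H heifer 3.

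Calves numbered 2 to 5 occur in both liver groups. Their deviations from the group means were not correlated by number (r from -0.0145 to 0.0037 over 12993 windows). Calves were often read at different positions, as in the GC window, so this check cannot decide whether the numbers pair them. With a replicate block the liver difference was -9.87 points (exact permutation p = 0.5, 4 pairs), and the block called 0 windows, 0 bins and 294 DMCs.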

Other observations

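The GC window varied between animals more than the median window, with an SD of 14.8 points in liver against a median of 13.1 over the windows fitted (12.7 against 11.2 without IUHT-B calves 3 and 5) and of 5.19 points against 3.40 in mammary gland. It also held fewer calls than the median window, with 3189 against 9195 in liver (3183 against 5682 without those calves) and 2075 against 2707 in mammary gland. The part of depth in this spread was not tested. The windows whose levels over the 15 animals were closest to those of the GC window lay on chromosome 27 from 7800000 to 7949999, on chromosome 19 from 53700000 to 53849999 and on chromosome 12 from 12600000 to 12749999. Their root mean square differences from it were 6.17, 6.23 and 6.76 points, against a median of 16.9 over 12990 windows. With IUHT-B calves 3 and 5 left out, which gave the GC window 5 calls and 1 call, the 3 closest of 17322 windows lay on chromosomes 21, 26 and 18, at 5.07 to 5.54 points against a median of 14.9, and 0 of the 3 windows named before were among them. The animals share depth and library kind within a tissue, and nothing on shared function or control follows.

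In heifers, positions 88696578 and 88696579, which lie 638 and 639 bp inside the left end of the span, held a few reads, all unmethylated. As adjoining bases they are the opposite strands of 1 CpG. IUCL-H heifer 1 had 0 of 2 methylated at each. IUHT-H heifer 1 had 0 of 1 at the first, and IUHT-H heifers 2 and 3 had 0 of 1 at the second. IUCL-H heifers 2 and 3 had no read at either. Within 1 kb of the left end 21 of 38 mammary calls were methylated. IUCL-H heifer 1 had 0 of 8 within that 1 kb and IUCL-H heifer 2 had 4 of 4.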
